A study of Mus musculus with 5 samples.

Results

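The cytosolic ribosomal protein genes are the genes for the protein parts of the ribosome outside mitochondria. They were taken as the genes whose mouse symbol begins with Rpl or Rps followed by a number and at most a short suffix, together with Rplp0, Rplp1, Rplp2 and Rpsa. Of the 78334 genes in the count table, 89 matched, 53 of the large and 36 of the small subunit. Among them 77 (46 large, 31 small) are the genes that code for the standard ribosomal proteins and are called core genes here. Another 7 are paralogues that differ in sequence from their standard partner (Rpl3l, Rpl10l, Rpl22l1, Rpl39l, Rps27l, Rpl7l1 and Rps4l, the last of which the annotation gives as a transcribed processed pseudogene), and 5 are annotated as processed pseudogenes (Rpl6l, Rpl32l, Rps3a2, Rps3a3 and Rps12l1). A cutoff on low counts kept 87 of the 89. Rpl32l and Rps12l1 were left out, with a count of 0 in every library, which allows up to 3 counts or 0.0707 to 0.118 CPM (counts per 1000000 counts of the library).

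The study asked how curcumin, a turmeric polyphenol, acts in a mouse diabetes model, with 5 RNA-seq libraries labelled as visceral fat, all of male C57BL/6 mice. The control group (1 library) had standard chow and the vehicle of the treatment. The diabetes group (2 libraries) had 1 injection of 70 mg/kg streptozotocin, which kills beta cells, when 2 days old, then from 3 weeks of age 8 weeks of a high-fat diet (60% of kcal), and the same vehicle. The curcumin group (2 libraries) had the same injection and diet and, from 11 weeks of age, 50 mg/kg curcumin by gavage each day for 28 days. Control and diabetes thus differ in both the toxin and the diet. Nothing in the labels says that the libraries within a group are different mice, so the p-values rest on a spread that may be technical.

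The ribosome has a small subunit, which holds and reads the mRNA, and a large subunit, which joins the amino acids and sends the new protein out through a tunnel. Each ribosome carries a single copy of nearly every ribosomal protein, the stalk proteins Rplp1 and Rplp2 being the exception, and cells make the proteins in step. The mRNAs of these genes begin with a run of pyrimidines, the terminal oligopyrimidine (TOP) tract, through which the kinase mTOR controls their translation. Mammalian genomes hold many processed copies of ribosomal protein genes, intronless DNA copies of their mRNAs, and most are annotated as pseudogenes. A read from a ribosomal protein mRNA can therefore match both the gene and its copies.

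Markers of other tissues differed widely between libraries of the same group. In the order control 1, diabetes 1, diabetes 2, curcumin 1 and curcumin 2, the 12 markers of epididymal epithelium, the duct lying beside gonadal fat in males, took 7.37%, 7.202%, 1.18e-05%, 0.668% and 11.01% of counts. The 10 adipocyte markers took 0.0478%, 0.0118%, 2.38%, 0.306% and 0.0159%, and the 8 smooth muscle markers took 0.248%, 0.144%, 0.108%, 4.43% and 0.217%. In curcumin 1 nearly all of the epididymal share came from Crisp1 (5965 CPM) and Defb42 (669.7 CPM), with the other 10 markers between 0.252 and 19.6 CPM. Of the epididymal markers, 10 of 12 were at 0 in diabetes 2 and none in the other 4 libraries. Of the adipocyte markers, Retn and Pparg were at 0 in diabetes 1 and none in the other 4. Thus 3 of the 5 libraries, control 1 among them, held hardly any adipocyte RNA and much epididymal RNA, which goes against their label. In bulk samples such as these, fewer cells of a type and less RNA per cell cannot be told apart. Total counts ran from 25378046 to 42422890 per library, and the number of genes with only 1 to 5 counts ran from 1292 in diabetes 1 to 19751 in curcumin 1.

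A search of the mouse transcript set found 989 loci in the count table that hold a copy of a core coding sequence at 90% identity or more over at least 80% of its length. They are called copy loci here. Of these, 943 are annotated as processed pseudogenes, 5 are themselves members, and 74 of the 77 core genes have at least 1. Rpl8 and Rps3 are among those with none. The sequences of 4 genes and their most abundant copy locus show how far the pairs can be separated by sequence. Each stretch is 80 bases of coding sequence, written 5′ to 3′ and centred on an exon junction of the gene, from GENCODE transcripts on GRCm38. In the first 3 pairs gene and copy are identical over the whole stretch, and capitals mark the 6 bases on each side of the junction. In the last pair capitals mark the base that differs.

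Rpl24 (chromosome 16) and Gm9385 (chromosome 9): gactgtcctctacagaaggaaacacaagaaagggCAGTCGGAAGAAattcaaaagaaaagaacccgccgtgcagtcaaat
Rps10 (chromosome 17) and Rps10-ps2 (chromosome 16): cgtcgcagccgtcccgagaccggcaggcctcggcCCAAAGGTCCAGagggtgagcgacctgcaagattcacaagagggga
Rpl23a (chromosome 11) and Rpl23a-ps3 (chromosome 14): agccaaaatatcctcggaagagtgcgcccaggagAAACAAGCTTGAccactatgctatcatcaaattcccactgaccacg
Rps21 (chromosome 2): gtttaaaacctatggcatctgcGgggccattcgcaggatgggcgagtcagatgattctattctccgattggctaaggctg
Gm5963 (chromosome 16): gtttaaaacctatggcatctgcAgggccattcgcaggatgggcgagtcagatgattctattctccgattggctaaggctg

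Over the whole matched coding sequence, identity was 99.8% for Rpl24 with Gm9385, 99.0% for Rps10 with Rps10-ps2, 99.8% for Rpl23a with Rpl23a-ps3 and 92.3% for Rps21 with Gm5963. Even the stretch that spans a junction between exons, which genomic DNA of the gene itself cannot contain, thus does not separate the first 3 genes from their copies. How the counting treated reads that match several loci is not given in the sources used here. The deposited count of a gene with near-identical copies is therefore uncertain, and the counts of gene and copies are given together below.

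The 89 members took 1.38%, 1.57%, 0.837%, 1.04% and 1.84% of all counts in control 1, diabetes 1, diabetes 2, curcumin 1 and curcumin 2. The highest share was in curcumin 2 (95% Wilson interval 1.831% to 1.839%) and the lowest in diabetes 2 (0.833% to 0.840%). These intervals, like the limits for a count of 0, cover counting error only. The share was 1.44% ± 0.560 (SD, n = 2) in the curcumin group and 1.20% ± 0.518 (SD, n = 2) in the diabetes group, and the groups overlapped. An exact permutation test over libraries gave p = 0.667 (two-sided), where 2 libraries against 2 cannot go below 0.333. Large subunit core genes took 0.725%, 0.801%, 0.429%, 0.538% and 0.967% of counts, and small subunit core genes 0.509%, 0.576%, 0.334%, 0.403% and 0.678%, in the same order of libraries.

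The copy loci that are not members, 984 in number, took more counts than the genes themselves in each library. Their share was 3.51%, 3.82%, 1.88%, 2.54% and 5.11%, so that members and copy loci together took 4.89%, 5.39%, 2.72%, 3.58% and 6.94%. Of the counts of core genes and their copies together, the genes themselves held 25.4% in control 1, 25.7% and 28.3% in diabetes 1 and 2, and 26.4% and 23.8% in curcumin 1 and 2. The shares of members and of copy loci were both lowest in diabetes 2, next lowest in curcumin 1 and highest in curcumin 2. The summed epididymal markers were also lowest in diabetes 2 and highest in curcumin 2, while the value of curcumin 1 rests on Crisp1 and Defb42, and their part in the result was not tested.

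**Figure D1:**
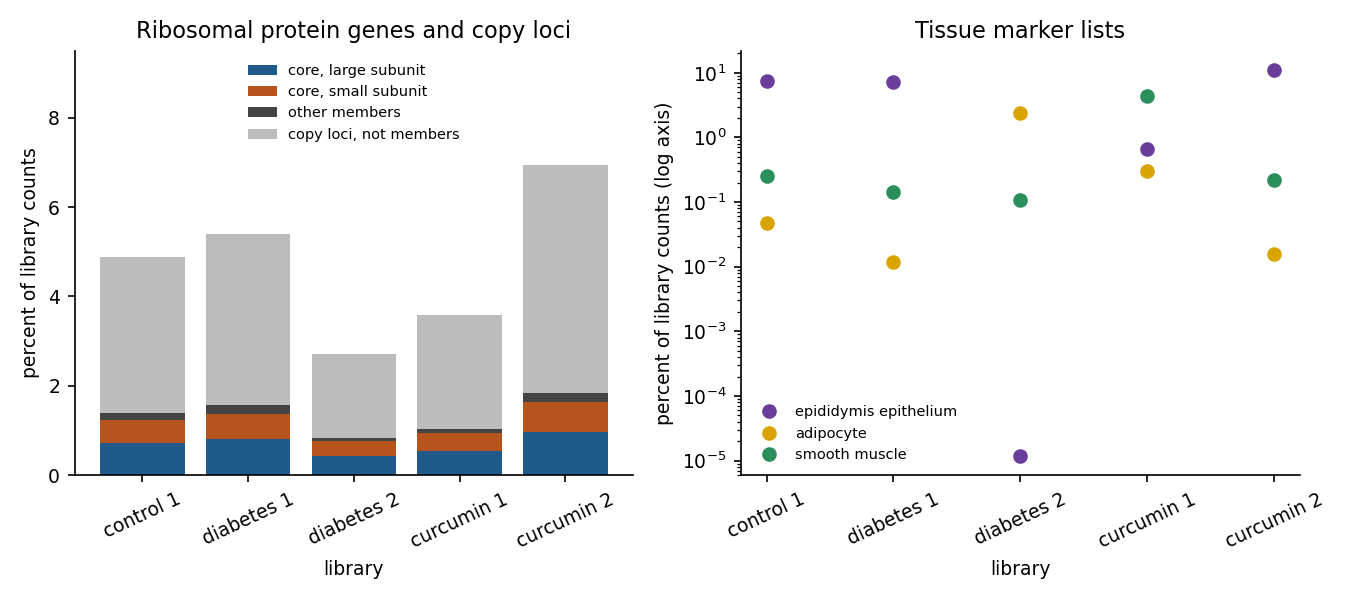
Left, percent of each library's counts in core large subunit genes, core small subunit genes, other members and copy loci that are not members, stacked. Right, percent of counts in the epididymal, adipocyte and smooth muscle marker lists on a log axis. The stacked total is lowest in diabetes 2 (2.72%) and highest in curcumin 2 (6.94%).

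Per length of transcript, the level of a core gene ran from 4.18 CPM per kb for Rpl24 to 1434 CPM per kb for Rpl41, as means over the 5 libraries. The quartiles of the 77 genes were 18.2 and 227 CPM per kb, a 12.4-fold range. Apart from Rplp1 and Rplp2, a ribosome carries nearly all of their proteins in equal number. With each gene's copy loci added, the quartiles were 533 and 1079 CPM per kb, a 2.02-fold range. The full span was still wide, from 12.2 to 2756 CPM per kb. In counts, 58 of the 77 core genes lay below the sum of their copy loci as a mean, and 57 in every library. The gene held under 5% of the joint count for 28 genes and over 90% for 9.

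The genes without a near-identical copy had a higher median level, with ranges that overlapped. For 9 core genes, less than 50% of the coding sequence was shared with another locus at 97% identity over 100 bases or more. Among them were Rpl4, Rpl8, Rpl22, Rpl32, Rps3, Rps14 and Rps21, and the median level of the 9 was 691 CPM per kb (137 to 1021). For 67 others, 65 of them shared over their whole coding sequence, the median was 31.5 CPM per kb (4.18 to 1258). Rpl41, whose coding sequence is too short for this search, belonged to neither. These values are a description, since the split was made with the levels known. In CPM, 8 of the 9 genes and 12 of the 67 were at 200 or more. With copy loci added, the median counts were close, at 519 CPM for the 9 genes and 564 CPM for the 67. Without them these medians were 407 and 25.7 CPM.

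**Figure D2:**
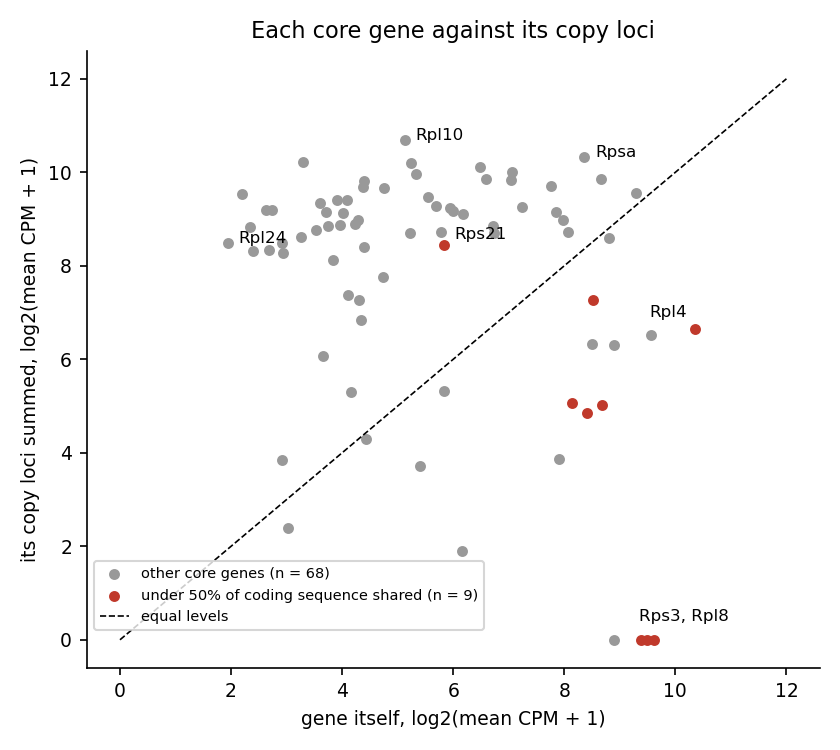
Mean count of each of the 77 core genes (x axis, log2 of CPM + 1) against the summed count of its copy loci (y axis, same scale), over 5 libraries. Red points are the 9 genes with under 50% of their coding sequence shared. Most grey points lie above the dashed line of equal levels, and Rps3 and Rpl8, which have no copy locus, lie on the x axis, as does Rps9, whose copy locus was at 0.

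Among the large subunit genes, Rpl41, Rplp1 and Rpl4 had the highest levels per length. Rpl41, which codes for a very short peptide of the subunit interface, was at 784 CPM in control 1, 598 and 607 CPM in diabetes 1 and 2, and 695 and 1092 CPM in curcumin 1 and 2. Rpl4, whose protein lines the exit tunnel, was at 1421 CPM in control 1, 1908 and 648 CPM in diabetes 1 and 2, and 803 and 1796 CPM in curcumin 1 and 2. For Rpl41 both curcumin libraries lay above both diabetes libraries, while for Rpl4 the groups overlapped. Among the small subunit genes, Rps15 and Rps3 were among the highest per length. Rps3, at the site where mRNA enters, was at 704 CPM in control 1, 852 and 507 CPM in diabetes 1 and 2, and 561 and 705 CPM in curcumin 1 and 2, and Rps15 at 469 CPM in control 1, 356 and 263 CPM in diabetes 1 and 2, and 380.1 and 894 CPM in curcumin 1 and 2. Both were lowest in diabetes 2.

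The lowest levels per length belonged to Rpl24, Rpl23a and Rpl31 in the large subunit and Rps13, Rps23 and Rps10 in the small. Rpl24, which forms a bridge between the subunits and is mutated in the Belly spot and tail mouse, was at 1.63 CPM in control 1, 0.904 and 4.85 CPM in diabetes 1 and 2, and 2.23 and 4.55 CPM in curcumin 1 and 2. Its copy loci together were at 349 CPM in control 1, 306 and 224 CPM in diabetes 1 and 2, and 282 and 629 CPM in curcumin 1 and 2. Counting genes on either strand, here and below, other genes overlap 71.5% of the exon sequence of Rpl24 in the annotation. The part of overlap and of copies in its count was not tested. Rpl23a, at the mouth of the exit tunnel, was at 2.11, 2.48, 5.595, 3.77 and 4.05 CPM in the order of libraries above, against a mean of 745 CPM for its copies. Rpl31, also at the tunnel mouth, was at 4.51, 2.83, 3.51, 3.99 and 5.63 CPM, against 455 CPM.

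Rps10, whose human counterpart is mutated in Diamond-Blackfan anaemia, was at 5.51, 3.22, 6.502, 4.96 and 5.87 CPM, and other genes overlap 91.6% of its exon sequence. Rps10-ps2 alone had a mean of 434 CPM. Rps13 was at 7.07, 6.601, 6.03, 5.72 and 7.28 CPM, against 359 CPM for its copies. Rps23, at the decoding centre, was at 7.400, 6.95, 8.39, 5.46 and 7.64 CPM and its 13 copy loci at only 4.28 CPM, so that its joint count of 11.4 CPM was the lowest of the 77. The remaining low genes had joint counts in the range of the others.

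**Figure D3:**
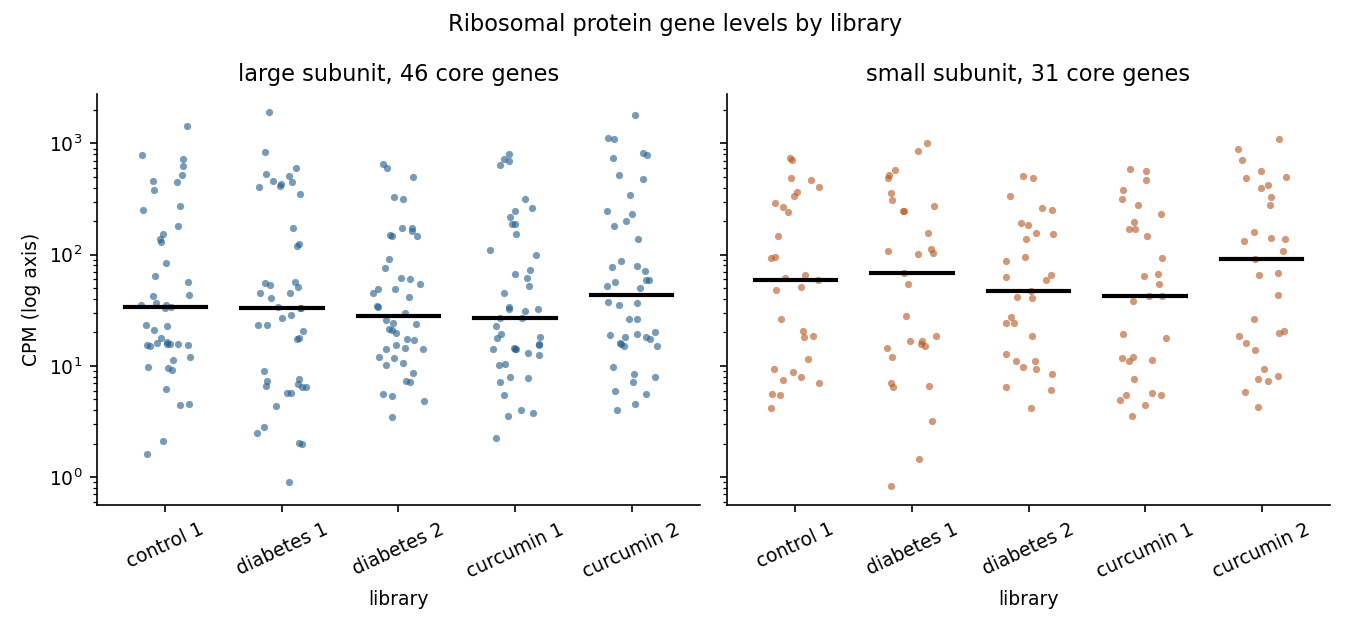
CPM (log axis) of the 46 large and 31 small subunit core genes in each of the 5 libraries. Each point is a gene and the black line is the median. Levels within a library span over 2 powers of 10, and the medians are highest in curcumin 2, at 43.8 CPM for the large and 90.8 CPM for the small subunit.

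The median level per length of large subunit genes was lower than that of small subunit genes in each library. The ratio of the medians was 0.508 in control 1, 0.333 and 0.526 in diabetes 1 and 2, and 0.608 and 0.473 in curcumin 1 and 2. It was 0.430 ± 0.136 (SD, n = 2) in diabetes and 0.540 ± 0.0956 (SD, n = 2) with curcumin, and the exact permutation test gave p = 0.667. With copy loci added to each gene, the ratio was above 1 in every library, at 1.13, 1.17, 1.15, 1.03 and 1.08. On that scale curcumin was below diabetes without overlap (1.06 ± 0.0385 against 1.16 ± 0.0181, SD, n = 2 each), with an exact permutation p of 0.333, the smallest this design can give. The ratio of summed CPM, not per length and without copies, of the 46 large to the 31 small subunit core genes was 1.42, 1.39, 1.28, 1.33 and 1.43. Since the sums hold unequal numbers of genes, a value above 1 does not show a higher level per gene. The ratio of median CPM, also not per length and without copies, was 0.565, 0.483, 0.597, 0.635 and 0.483. The side of 1 on which the ratio of medians lies thus differs with and without copy loci.

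The stalk proteins recruit elongation factors to the large subunit. Rplp0, their base, was at 463 CPM in control 1, 464 and 162 CPM in diabetes 1 and 2, and 188 and 735 CPM in curcumin 1 and 2. Rplp1 was at 629 CPM in control 1, 446 and 313 CPM in diabetes 1 and 2, and 640.5 and 1111 CPM in curcumin 1 and 2, and Rplp2 at 83.7 CPM in control 1, 56.1 and 54.9 CPM in diabetes 1 and 2, and 99.8 and 56.6 CPM in curcumin 1 and 2. Rplp0 and Rplp1 were lowest in diabetes 2 and highest in curcumin 2, while Rplp2 was highest in curcumin 1. Rplp2 has 1 copy locus with a mean of 2.75 CPM, against 747 CPM for those of Rplp1.

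Rpsa, a small subunit protein also known as the laminin receptor, was at 334 CPM in control 1, 492 and 154 CPM in diabetes 1 and 2, and 169 and 493 CPM in curcumin 1 and 2. Its copy loci together had a mean of 1275 CPM, of which Rpsa-ps10, the most abundant of the 989 copy loci, had 1002 CPM. Rps27a, a ubiquitin fusion that releases free ubiquitin, was at 20.7, 16.9, 18.5, 11.1 and 26.6 CPM. Fau, which codes for a ubiquitin-like fusion and does not match the symbol rule, was at 23.4, 24.7, 35.3, 22.97 and 27.7 CPM, highest in diabetes 2. Rack1, a scaffold bound to the small subunit, was at 814, 1048, 541, 584 and 988 CPM and, like the abundant core genes, lowest in diabetes 2.

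Rpl5 and Rpl11, which with 5S rRNA bind Mdm2 and stabilise p53, were at 16.5, 23.4, 21.5, 14.2 and 20.2 CPM and 15.4, 9.04, 26.01, 14.1 and 15.02 CPM. Rps6, the substrate of S6 kinase, was at 93.4, 104, 63.6, 54.8 and 159 CPM, highest in curcumin 2. Rps19, the gene most often mutated in human Diamond-Blackfan anaemia, was at 48.5, 27.98, 46.9, 38.2 and 107 CPM. Rps26, another anaemia gene and part of the mRNA exit path, was at 292, 311, 87.1, 171 and 327 CPM and has few copy counts (13.7 CPM). Rpl38, which in mouse embryos is needed for the translation of Hox mRNAs, was at 4.44, 2.004, 5.398, 3.56 and 5.89 CPM.

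Across the 5 libraries, 44 of the 77 core genes were highest in curcumin 2, and 27 were lowest in diabetes 2, 21 in diabetes 1 and 21 in curcumin 1. With copy loci added, 57 were highest in curcumin 2 and 62 lowest in diabetes 2. The SD of log2 CPM over the libraries had a median of 0.81 for the 19278 tested genes with a count in every library. For the core genes, which were not matched to those by level, it was 0.48, and 0.58 with copy loci added. The smallest SD was that of Rps4x, which codes for an X-linked small subunit protein, at 146 CPM in control 1, 156 and 155 CPM in diabetes 1 and 2, and 149 and 142 CPM in curcumin 1 and 2. Rpl37 was at 23.4, 20.6, 20.9, 18.3 and 19.3 CPM and Rps13 was next. The largest SDs were those of Rpl37a (9.21, 2.04, 19.7, 13.2 and 37.4 CPM), Rps28 (7.88, 0.825, 11.1, 3.56 and 9.36 CPM) and Rps29 (5.62, 1.45, 11.2, 4.49 and 4.31 CPM). All 3 were lowest in diabetes 1, where Rps28 had 21 counts.

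The library in which a gene was lowest went with its count level. For the 21 core genes with a mean of 200 CPM or more, which held 83.5% of core counts, diabetes 1 was above diabetes 2 in 19, with a median difference of 1.07 on the log2 scale. Among the 26 genes between 20 and 200 CPM it was above in 17, with a median of 0.20. For the 30 genes under 20 CPM, diabetes 1 was above in 9 and the median was -0.63, and 16 of the 30 were lowest in diabetes 1. Across the 77 genes the log2 level and the log2 ratio of diabetes 1 to diabetes 2 had Pearson's r = 0.670 and Spearman's rho = 0.724, as a description of these 2 libraries. Diabetes 1 also had the fewest genes with 1 to 5 counts of the 5 libraries (1292, against 10411 in diabetes 2). The part of that difference in the result was not tested.

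**Figure D4:**
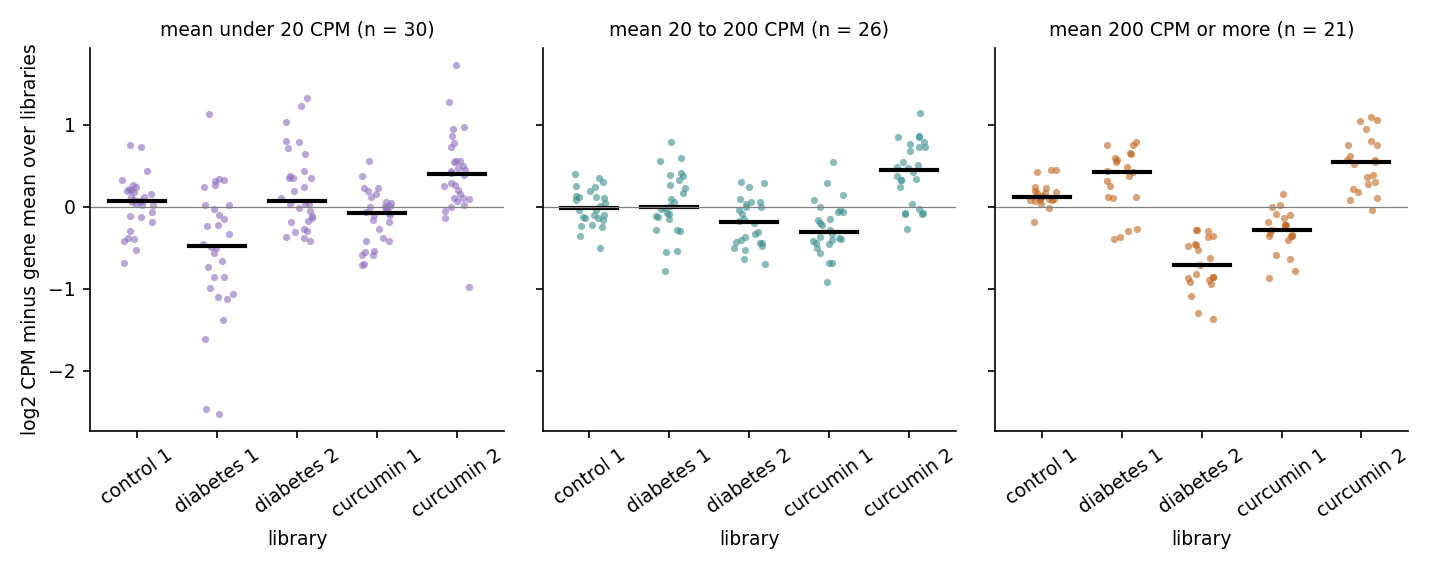
Log2 CPM of each core gene minus its own mean over the 5 libraries, in 3 classes of mean CPM. Points are genes and black lines medians. In diabetes 1 the median is -0.47 for genes under 20 CPM and 0.43 for genes of 200 CPM or more, while in diabetes 2 it is 0.07 and -0.71.

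Of the variant paralogues, Rpl3l varied most between libraries. In mice it codes for a form of Rpl3 known from heart and skeletal muscle. It was at 94.4 CPM in control 1, 34.5 and 0.0788 CPM in diabetes 1 and 2, and 9.38 and 74.8 CPM in curcumin 1 and 2, from only 2 counts in diabetes 2 to 3173 in curcumin 2, while its partner Rpl3 was at 33.4, 51.7, 41.5, 33.8 and 36.7 CPM. Rpl3l was thus high in control 1, diabetes 1 and curcumin 2 and low in diabetes 2 and curcumin 1. Of the counts of the pair, Rpl3l held 73.8% in control 1, 40.03% and 0.190% in diabetes 1 and 2, and 21.7% and 67.1% in curcumin 1 and 2. Per length, and with the copies of Rpl3 counted with it, Rpl3l was 6.91%, 1.73%, 0.0115%, 0.922% and 4.38% of the pair.

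The markers of other tissues were set beside Rpl3l. The 7 skeletal muscle markers took 0.00121%, 7.47e-04%, 0.00401%, 0.137% and 0.0109% of counts, highest in curcumin 1, where Rpl3l was at 9.38 CPM. In curcumin 1, Acta1 and Ckm held most of that share (1069 and 294 CPM), and Tnnt3 was also highest there (5.39 CPM). Myh4, Myh1 and Myh2 were instead highest in curcumin 2 (5.30, 4.95 and 5.35 CPM), and Mylpf in control 1 (4.03 CPM). Myh4 was at 0 in control 1 and diabetes 1. The epididymal list and the sperm and germ cell list were both highest in the same 3 libraries as Rpl3l. The part of any of these tissues in the result was not tested.

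Rpl10l and Rpl39l, which in mice are known from male germ cells, were near the floor. Rpl10l had 12 counts in diabetes 1 and 94 in curcumin 2 (0.471 and 2.22 CPM) and 0 in the other 3 libraries, which allows up to 0.108 to 0.118 CPM. Its X-linked partner Rpl10 was at 35.04, 26.9, 24.1, 31.1 and 52.4 CPM, with 1655 CPM in its copy loci. Rpl39l had 11 counts in control 1, 0 and 7 in diabetes 1 and 2, and 12 and 31 in curcumin 1 and 2, against 755 to 2132 for Rpl39. Of the 7 sperm and germ cell markers, 1 was at 0 in each library, and the list took 0.0188%, 0.0165%, 9.85e-05%, 9.71e-05% and 0.0199% of counts. The list was highest in curcumin 2, where Rpl10l was highest, but Rpl10l was at 0 in control 1, where the list was nearly as high.

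The other paralogues were found in every library. Rps27l, a p53 target, was at 72.3, 73.6, 82.6, 90.1 and 88.1 CPM, above Rps27 itself, at 11.5, 12.1, 9.73, 11.2 and 16.2 CPM. It held 81.3% to 87.1% of the pair per length, but 6.33% to 25.4% when the copies of Rps27 were counted with it. Rpl7l1 was at 42.8, 41.4, 69.3, 77.1 and 38.4 CPM and Rpl7 at 254, 406, 175, 187 and 233 CPM. Rps4l, annotated as a transcribed processed pseudogene, was at 67.3, 87.7, 38.7, 59.4 and 86.4 CPM against 146, 156, 155, 149 and 142 CPM for Rps4x. Rpl22l1, known to rise in mice that lack Rpl22, was at 6.03, 4.13, 7.25, 5.18 and 14.1 CPM, and Rpl22 at 276, 412, 149.8, 217 and 345 CPM. Copy loci were assigned to core genes only. Near-identical sequence at another locus covered 100% of the coding sequence of Rpl22l1 and 99.5% of that of Rpl10l. Other genes on either strand also overlap 28.8% of the exon sequence of Rpl22l1, so the counts of both paralogues are uncertain too. Rpl7l1 was highest in curcumin 1 and diabetes 2, the same libraries in which Rpl7 was lowest.

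The annotated processed pseudogenes among the members included 3 abundant ones. Rps3a2 was at 802, 1198, 367, 561 and 965 CPM, above its parent Rps3a1, at 65.4, 109, 65.1, 64.2 and 139.8 CPM, in each library, also per length. Rps3a3 was at 125, 198, 48.8, 67.2 and 164 CPM, and Rpl6l at 269, 295, 119, 146 and 466 CPM against 153, 126, 90.5, 110.1 and 179.9 CPM for Rpl6. All 3 were lowest in diabetes 2. Rpl32l and Rps12l1 were the members at 0.

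**Figure D5:**
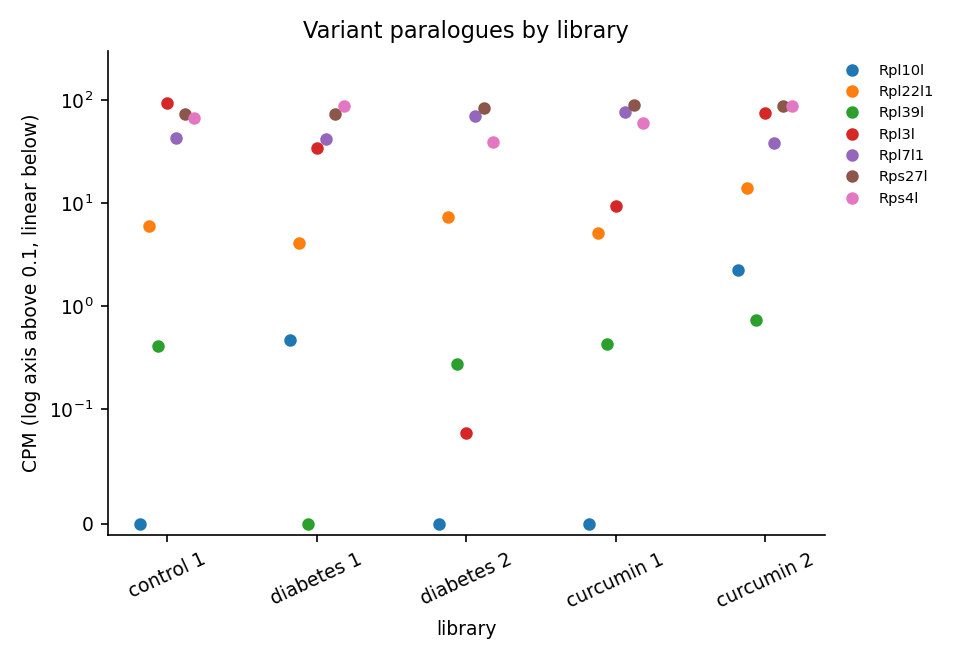
CPM of the 7 variant paralogues in each library, on an axis that is logarithmic above 0.1 CPM and linear below. Rpl3l spans from 0.0788 CPM in diabetes 2 to 94.4 CPM in control 1, while Rps27l stays between 72.3 and 90.1 CPM.

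The effect of curcumin on the diabetic tissue was addressed by comparing the curcumin with the diabetes group. Of the 87 members tested, 0 passed an adjusted p of 0.05 in edgeR's quasi-likelihood test, as did 0.0% of all 29855 genes tested. At an unadjusted p under 0.05 there were 696 genes and 0 members, and DESeq2 and limma-voom called 0 members and 95 and 0 genes. The fitted log2 fold changes of the members had a median of 0.19, with 65 above 0 and 22 below, and those of all genes tested a median of 0.05. This median turned to -0.30 without curcumin 2 and was 0.65 without curcumin 1. Libraries of the groups did not overlap, with curcumin higher, for 16 of the 77 core genes (20.8%, against 17.9% of all genes tested), and with curcumin lower for 6 (7.79%, against 9.72%). Both shares were near the background.

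Rpl35, at the tunnel mouth, was lower with curcumin in both libraries, at 21.1 CPM in control 1, 34.1 and 15.3 CPM in diabetes 1 and 2, and 10.3 and 7.87 CPM in curcumin 1 and 2. Its log2 fold change was -1.42 (SE 0.58, adjusted p = 0.852), an unadjusted p of 0.0587 by the same test, the smallest of the members. With its copy loci added, the value was 0.73, of the opposite sign, and other genes on either strand overlap 68.3% of its exon sequence. Rpl19, at 22.8, 33.4, 30.03, 17.9 and 26.2 CPM, had -0.51 (SE 0.50, adjusted p = 0.872), and Rpl21, at 16.1, 33.1, 16.9, 15.7 and 18.2 CPM, had -0.53 (SE 0.54, adjusted p = 0.876), and both also changed sign with copies added (0.53 and 0.28). On the other side stood Rpl12, which helps form the stalk base, at 15.4, 6.92, 11.7, 14.6 and 35.1 CPM and a log2 fold change of 1.42 (SE 0.74, adjusted p = 0.852). Rpl28, at 15.9, 7.31, 10.3, 19.5 and 17.4 CPM, had 1.04 (SE 0.57, adjusted p = 0.852). Rplp1 had 1.24 (SE 0.68, adjusted p = 0.852), and its curcumin libraries lay above its diabetes libraries. None of these 6 passed the threshold. Single libraries moved these values: without curcumin 2, Rpl12 was at 0.49, Rplp1 at 0.64 and Rpl19 at -0.95, and without curcumin 1, Rpl19 was at -0.18 and Rpl21 at -0.34. Without diabetes 1, Rpl21 was at -0.09 and Rpl35 at -0.87, and without diabetes 2, Rpl21 was at -0.86.

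The effect of the diabetes model was addressed by comparing the 2 diabetes libraries with the single control, whose spread was taken to be that of the replicated groups. Again 0 of 87 members passed in edgeR's test, as did 0.0% of all genes, with 440 genes and 0 members at an unadjusted p under 0.05. DESeq2 called 58 genes and 0 members, and limma-voom 0 genes. The median log2 fold change of the members was 0.00 (44 above 0, 43 below), against 0.07 for all genes. With counts scaled by the library total alone, 31 members were above and 56 below 0, with a median of -0.15. Diabetes lay above control in both libraries for 12 of 77 core genes (15.6%, against 17.3% of all genes) and below it for 25 (32.5%, against 34.5%). The members with the smallest p had log2 fold changes of -1.12 (SE 0.92) for Rpl9, at 15.9, 4.32, 8.59, 7.84 and 16.2 CPM, -0.75 (SE 0.64) for Rpl36, at 43.8, 23.3, 23.8, 32.7 and 59.02 CPM, and -0.69 (SE 0.67) for Rpl28. In the other direction Rpl3 had 0.62 (SE 0.54) and Rpl21 0.75 (SE 0.68), the latter of opposite sign with copies added (-0.25). The adjusted p of all 5 was 1 by edgeR's test. Rpl10l, the third by p, rests on 12 counts in 1 library, so no fold is given.

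Curcumin-treated diabetes against the control shares its libraries with both comparisons above. In edgeR's test 0 of 87 members passed, as did 0.0% of all genes, with 112 genes and 0 members at an unadjusted p under 0.05, and DESeq2 called 77 genes and 0 members, limma-voom 0 genes. The members' median log2 fold change was 0.24 (74 above 0, 13 below), against 0.17 for all genes. Scaled by the library total alone, it was 0.09 (51 above, 36 below), and the median of all genes moved to 0.03. Without curcumin 2 the members' median was -0.30. Curcumin lay above control in both libraries for 15 of 77 core genes (19.5%, against 24.6% of all genes) and below it for 7 (9.09%, against 34.0%). Rpl18, at 34.97, 45.4, 49.3, 52.5 and 71.99 CPM, had a log2 fold change of 0.99 (SE 0.60) and Rps3a1 0.82 (SE 0.77), which was -0.01 without curcumin 2. Rpl35 had -1.08 (SE 0.67), Rpl37 -0.17 (SE 0.58) and Rpl3l -0.94 (SE 2.47), all with an adjusted p of 1 by edgeR's test. With copies added, Rpl35 and Rpl37 were of the opposite sign (0.57 and 1.62), and both values rest on curcumin 2. The copy loci of Rpl37 were at 89.6 CPM there and at 0.354 to 1.07 CPM in the other 4 libraries. Rpl35 with its copies was at 470.3 CPM in control 1, 385 CPM in curcumin 1 and 835 CPM in curcumin 2.

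Genes that work with the ribosomal proteins were described from 4 lists. In edgeR's test, the only one whose calls were counted for these lists, none of their genes passed in any comparison. The smallest unadjusted p by that test was 0.1001, for Mrpl36. The 17 translation factors of the TOP class, among them Eef1a1 and Eef2, took 1.05%, 1.52%, 0.633%, 0.728% and 1.02% of counts, again lowest in diabetes 2 but highest in diabetes 1. The 33 ribosome biogenesis genes took 0.135%, 0.128%, 0.147%, 0.1502% and 0.1297%, and the 78 mitochondrial ribosomal protein genes 0.315%, 0.262%, 0.278%, 0.341% and 0.411%. Neither list had its low point in diabetes 2. For curcumin against diabetes, the median log2 fold change was 0.19 for the TOP factors (10 of 17 above 0), -0.10 for biogenesis (14 of 33), 0.29 for mitochondrial ribosomal proteins (55 of 77 tested) and -0.11 for 14 growth control genes such as Mtor and Myc (6 above 0). The copy loci had a median of 0.70 (481 of 638 tested above 0), against 0.05 for all genes tested (51.7% above 0). Their shares of counts overlapped between the groups (p = 0.667 by the exact permutation test). Libraries did not overlap, with curcumin higher, for 18.2% of the 638 loci, against 17.9% of all genes, and with curcumin lower for 4.70%, against 9.72%.

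Within the lists, the genes with the smallest p for curcumin against diabetes had the following levels. Ubtf, a factor of RNA polymerase I, was at 179, 118, 92.5, 205 and 182 CPM, with curcumin above diabetes in both libraries. Ddx21, a nucleolar helicase, was at 34.00, 51.7, 71.9, 46.3 and 22.2 CPM. Btf3 and Naca, which form the nascent chain-associated complex, were at 44.5, 36.3, 43.1, 48.97 and 83.8 CPM and 42.4, 31.2, 16.9, 33.3 and 41.7 CPM. Of the S6 kinases, Rps6kb2 was at 36.8, 11.04, 22.4, 41.8 and 28.9 CPM, with a log2 fold change of 1.02 (SE 0.59, unadjusted p = 0.145 by edgeR's test) that is opposite in sign to that of Rps6kb1 (-0.74). Rps6kb1 was at 30.7, 36.9, 68.9, 32.3 and 32.9 CPM, highest in diabetes 2. Mrpl36 was at 36.6, 28.1, 23.6, 44.6 and 50.9 CPM, and its curcumin libraries also lay above those of diabetes.

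The start sites of the genes were read for the pyrimidine run of TOP mRNAs. RefSeq promoters (GRCm38.p6) matched 57 of the 77 core genes, with 67 start sites. A run of 8 or more pyrimidines within 15 bases of the start was found on the gene's strand at 26 of the 67 (38.8%), against 12.0% of all 32851 promoters. The letters CTTTCC lay in that window at 13.4%, against 1.42% of all promoters. Over the full 300 bases and both strands they were found in 49.3% and 26.6%. The windows of 6 core genes at different levels, all with a run of 10 or more pyrimidines, and of Rpl3l follow. They are 30 bases each, centred on the start and written 5′ to 3′ with the longest pyrimidine run in capitals.

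Rpl4 (chr9:64173372-64173401, + strand): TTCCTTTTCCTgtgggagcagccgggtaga
Rpl15 (chr14:18270972-18271001, - strand): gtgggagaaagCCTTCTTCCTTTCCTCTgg
Rpl28 (chr7:4792950-4792979, + strand): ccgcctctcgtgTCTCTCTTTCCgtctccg
Rpl35a (chr16:33056467-33056496, + strand): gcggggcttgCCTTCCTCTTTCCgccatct
Rplp2 (chr7:141447636-141447665, + strand): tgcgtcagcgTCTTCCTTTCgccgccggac
Rps10 (chr17:27635230-27635259, - strand): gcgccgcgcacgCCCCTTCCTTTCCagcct
Rpl3l (chr17:24727811-24727840, + strand): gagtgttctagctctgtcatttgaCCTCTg

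The longest run in the window was 17 bases for Rpl15 and 13 for Rps10 and Rpl35a, but 5 for Rpl3l. Rps10 thus has as long a run as Rpl35a. The run of Rpl4 begins at the first base of its window, so it may be longer than the 11 bases seen and is not ranked here. A match of letters is a description, and no match says only that they are not in the window.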

How the data were processed

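Poly-A RNA was sequenced with a strand-marking kit as paired ends of 150 bases, per the labels' protocols. The deposited table holds raw read counts of 5 libraries, whole numbers without normalisation. FastQC, featureCounts and the build GRCm39 are named in the submitters' processing notes. Which aligner, annotation release, strand setting and rule for reads matching several loci were used is not given in the sources used here.

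The members and all gene lists were chosen with earlier results of these data known. By gene ID, 51486 genes (65.7%) had a symbol, and levels are CPM of the library total. Levels per length use the median length of a gene's transcripts in GENCODE (GRCm38), which is not the files' build, so no coordinate was taken from the files. Copy loci were found with BLAST 2.17.0 (E value of 1e-20 at most), excluding loci that overlap the gene. All 29855 genes kept by filterByExpr were fitted in 1 model of 3 groups with edgeR 4.0.16 (TMM scaling, robust quasi-likelihood test, two-sided, Benjamini-Hochberg over all genes, threshold 0.05) in R 4.3.3, with 2 residual degrees of freedom and a biological coefficient of variation of 1.07. Fitted folds use a prior count of 0.125, and each SE is the fold divided by the root of its F statistic. Group values of single measures were compared by exact permutation tests. The fit was tested on simulated data. Alternatives were other scalings (DESeq2's size factors, the upper quartile, the library total alone), other low-count filters, DESeq2 1.42.0, limma-voom (limma 3.58.1), the older quasi-likelihood method, removal of marker and mitochondrial genes, a replicate block and leaving out each replicated library. Adding copy loci to their parent and a crossed pairing were chosen after seeing the data.

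Members named with a value in every library were, per comparison and direction, the 3 with the smallest p, the 3 highest and lowest core genes per length in each subunit, the 3 with the largest and smallest SD, all paralogues with their partners, the stalk proteins, Rpsa and the ubiquitin fusions. Some genes that this rule names are not reported here. Other members named by role were chosen after their values were seen. Total counts of 25378046 to 42422890 put the limit of a count of 0 (3 counts) at 0.0707 to 0.118 CPM.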

Additional observations from a re-analysis of the deposited data

Results flagged for a closer look

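The 984 copy loci that are not members lie outside the symbol rule and carried a large signal in every library, the control included. Their share of counts was 3.51% in control 1, 3.82% and 1.88% in diabetes 1 and 2, and 2.54% and 5.11% in curcumin 1 and 2. The single control library gives no spread to set the others against, and diabetes 2 and curcumin 1 lay below it. Of all 989 copy loci, which include 5 members, 131 were at 0 in all 5 libraries. A mean of at least 1 CPM was found for 381 and of at least 100 CPM for 85. Whether these reads came from the copies or from the genes was not tested.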

How the results depend on the processing

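Under every alternative run, 0 members passed the threshold in each of the 3 comparisons, with the replicate block and with the crossed pairing of diabetes 1 with curcumin 2 (0 calls among all genes for both) as well. Deviations from the group means of libraries with the same replicate number correlated at -0.49 over all tested genes, so the numbers were not taken to pair them. DESeq2 called 95, 58 and 77 genes in all for curcumin against diabetes, diabetes against control and curcumin against control, where edgeR called 0, and the cause was not tested. Leaving out a library at a time moved the median log2 fold change of core members from -0.30 to 0.65, from -0.04 to 0.04 and from -0.30 to 0.58 in the same 3 comparisons. With a library left out, the difference in member share (curcumin minus diabetes) ran from -0.160 to 0.632 percentage points, with 1 library standing for a group, below 0 without diabetes 2 (-0.131) and without curcumin 2 (-0.160). The difference in large-to-small ratio ran from 0.0148 to 0.207. With all members in place of the core genes it was -0.0132 and with copy loci added -0.103, against 0.111 in the report. With copy loci added, the mean large-to-small ratio was 1.11 in place of 0.490, the mean share of Rpl3l in its pair 2.79% in place of 36.7%, and by that construction more counts entered the partner. Copy loci also turned the log2 fold changes of Rpl19 (0.53), Rpl21 (0.28) and Rpl35 (0.73) for curcumin against diabetes, of Rpl21 (-0.25) for diabetes against control, and of Rpl35 (0.57) and Rpl37 (1.62) for curcumin against control. For the last comparison the replicate block turned Rpl3l to 1.14, and Rps3a1 ran from -0.012 to 1.33 with a library left out. Rpl10l ran from 0.00 to 6.81 for diabetes against control in those fits, a fold that rests on the prior count. The gene itself held 3.11%, 2.18% and 3.63% of the joint mean count for Rpl19, Rpl21 and Rpl35, so their joint values follow mostly the copies. The cause of these turns was otherwise not tested. The lowest core gene had 21 and 89 counts in diabetes 1 and 2, whose totals were nearly equal, and 172 in curcumin 2. By depth, a count of 0 allows up to 0.0707 to 0.118 CPM.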
